A study of Mus musculus with 22 samples.

Results

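The immunity-related GTPases (IRG proteins) are described here by 7 mouse genes, taken by name from 78298 genes in the deposited count tables: Irgm1, Irgm2, Igtp, Iigp1, Tgtp1, Tgtp2 and Ifi47. Tgtp1 and Tgtp2 are near-identical copies that share multi-mapped reads, so their counts were summed and the family was followed as 6 rows. All 7 genes were measured, and all 6 rows passed the filter on low counts in every comparison. The genes were chosen with earlier results of these counts in view, so the calls given for them are a description and not independent evidence that the family stands apart.

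IRG proteins are GTPases that interferons, above all interferon gamma, switch on in mouse cells, where they defend the cell against microbes that live in membrane vacuoles. The regulators Irgm1, Irgm2 and Igtp (also called Irgm3) sit on the cell's own membranes and keep the other members inactive there. The effectors Iigp1 (Irga6), Tgtp1 and Tgtp2 (Irgb6) and Ifi47 (Irgd) load onto the microbe's vacuole, a step that needs the autophagy conjugation machinery, and break it open.

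The 22 RNA sequencing libraries formed 9 groups. Natural killer (NK) cells, lymphocytes that kill tumour cells, came from the spleens of female or male donor mice. They were sequenced fresh with no treatment, after 24 h of monoculture with interleukin-2 (IL-2), or after 24 h of co-culture, again with IL-2, with the mouse pancreatic cancer line Panc02. Each sex and condition had 2 libraries. The remaining groups were Panc02 cells cultured alone (2 libraries), and Panc02 allograft tumours from female and male hosts (4 libraries each). The labels give no strain, age or genetic change for donors or hosts. They do not say whether NK and Panc02 cells were separated after co-culture, nor that each library came from its own animal. P-values therefore measure the spread between these libraries, part of which may be technical. The study's question, from its labels, is how the sex of the donor or host bears on NK cells and on this tumour.

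Libraries held 13025549 to 46842646 counts. Levels are given as CPM, a gene's counts scaled to the library's total gene counts. Summed markers of NK cells stood at 7310 to 8580 CPM in fresh and monocultured NK libraries, 165 to 309 in co-cultures and 17.7 to 19.7 in cultured Panc02. The sum in cultured Panc02 was nearly all Eomes (17.7 and 19.7 CPM), with 5 and 6 of the 7 markers at 0 counts. In co-cultures Eomes was at 29.8 to 39.6 CPM. Summed macrophage markers were at 3780 to 7800 CPM in allografts, against 16.1 to 21.2 in cultured Panc02 and co-cultures, where C1qa, C1qb and C1qc were at 0. A library's level of an IRG transcript is thus that of a mixture of cells in the co-cultures and allografts. In such bulk samples fewer cells of a type and less RNA per cell cannot be told apart.

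Of the family, 6 genes lie on chromosome 11 (GRCm39), in a pair of clusters. Irgm1 (48752795 to 48762510), Tgtp1 (48876154 to 48884999), Tgtp2 (48948021 to 48955033) and Ifi47 (48967414 to 48987801) form the first. Igtp (58090382 to 58098417) and Irgm2 (58090444 to 58113608) overlap on the plus strand and share 162 exon bases, 8.01% of Igtp and 4.39% of Irgm2, where reads cannot be assigned to either gene by position.

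Promoter windows of RefSeq (GRCm38.p6, 250 bases before to 50 after the start) were found for 6 of the 7 genes, all but Iigp1. They were searched on both strands for the core of the interferon-stimulated response element (ISRE; GAAA, any 2 bases, GAAA) and for TTCNNNGAA, the letters of the gamma-activated site (GAS). The ISRE core occurred in 5 of the 6 windows, against 3.44% of all 32851 windows, and TTCNNNGAA in 4, against 8.3%. In Irgm2, Igtp, Tgtp1 and Tgtp2 both occurred with their starts 11 bases apart, an arrangement held by 5 windows in all (0.0152%). The other one belonged to Gm12185, which overlaps Tgtp1. This spacing was noticed in these windows first and then counted, so the count describes it only. The stretches around the matches are shown because genes of both clusters hold nearly the same letters. They are given 5′ to 3′ on the gene's strand, with matches to either motif in capitals; in Irgm1 the capitals are a pair of overlapping matches to the ISRE core.
Irgm1, chr11:48871423-48871462, minus strand: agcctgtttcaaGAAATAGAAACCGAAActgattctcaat
Irgm2, chr11:58214890-58214934, plus strand: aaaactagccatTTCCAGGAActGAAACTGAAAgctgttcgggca
Igtp, chr11:58199499-58199543, plus strand: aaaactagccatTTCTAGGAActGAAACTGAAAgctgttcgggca
Tgtp1, chr11:48992302-48992346, minus strand: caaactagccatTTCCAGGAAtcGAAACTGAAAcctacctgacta
Tgtp2, chr11:49064261-49064305, minus strand: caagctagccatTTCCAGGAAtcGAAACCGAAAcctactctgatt
The matches begin 30 bases before the RefSeq start in Irgm1, 75 in Irgm2, 45 in Igtp, 88 in Tgtp1 and 81 in Tgtp2. The counted Igtp and Irgm2 genes begin close together (58090382 and 58090444), whereas their RefSeq stretches lie far apart. The Irgm2 stretch is therefore not at the start of the counted Irgm2 gene. The Ifi47 window held neither motif, which says only that these letters are not in it. Of the guanylate-binding protein genes (GBPs, a related family of interferon-induced GTPases), 5 had a window, and the ISRE core occurred in 5, TTCNNNGAA in 2 and the fixed spacing in 0 of them.

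The family did not have one level in NK cells. Per kb of exon length, which allows genes to be compared, Ifi47 was the most abundant member in fresh NK cells, at 63.8 ± 1.05 CPM per kb in female and 64.2 ± 3.09 in male cells (SD, n = 2 each). The Tgtp1 and Tgtp2 sum stood at 26.9 ± 0.163 and 28.5 ± 1.43 CPM per kb and Igtp at 25.9 ± 3.33 and 25.7 ± 2.18, so these neighbours in the order lay within their spread. Irgm2 and Irgm1 followed at 10.0 to 12.8 and 9.36 to 11.7 CPM per kb in the group means. Iigp1, which lies apart from the others on chromosome 18 (60509099 to 60525706), was lowest at 0.156 ± 0.183 and 0.277 ± 0.13 CPM per kb. The Tgtp1 and Tgtp2 sum was divided by the mean length of these genes, so its place in the order is that of both copies together. Singly, Tgtp1 was at 8.05 and 8.46 and Tgtp2 at 19.3 and 20.5 CPM per kb in female and male cells.

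**Figure D1:**
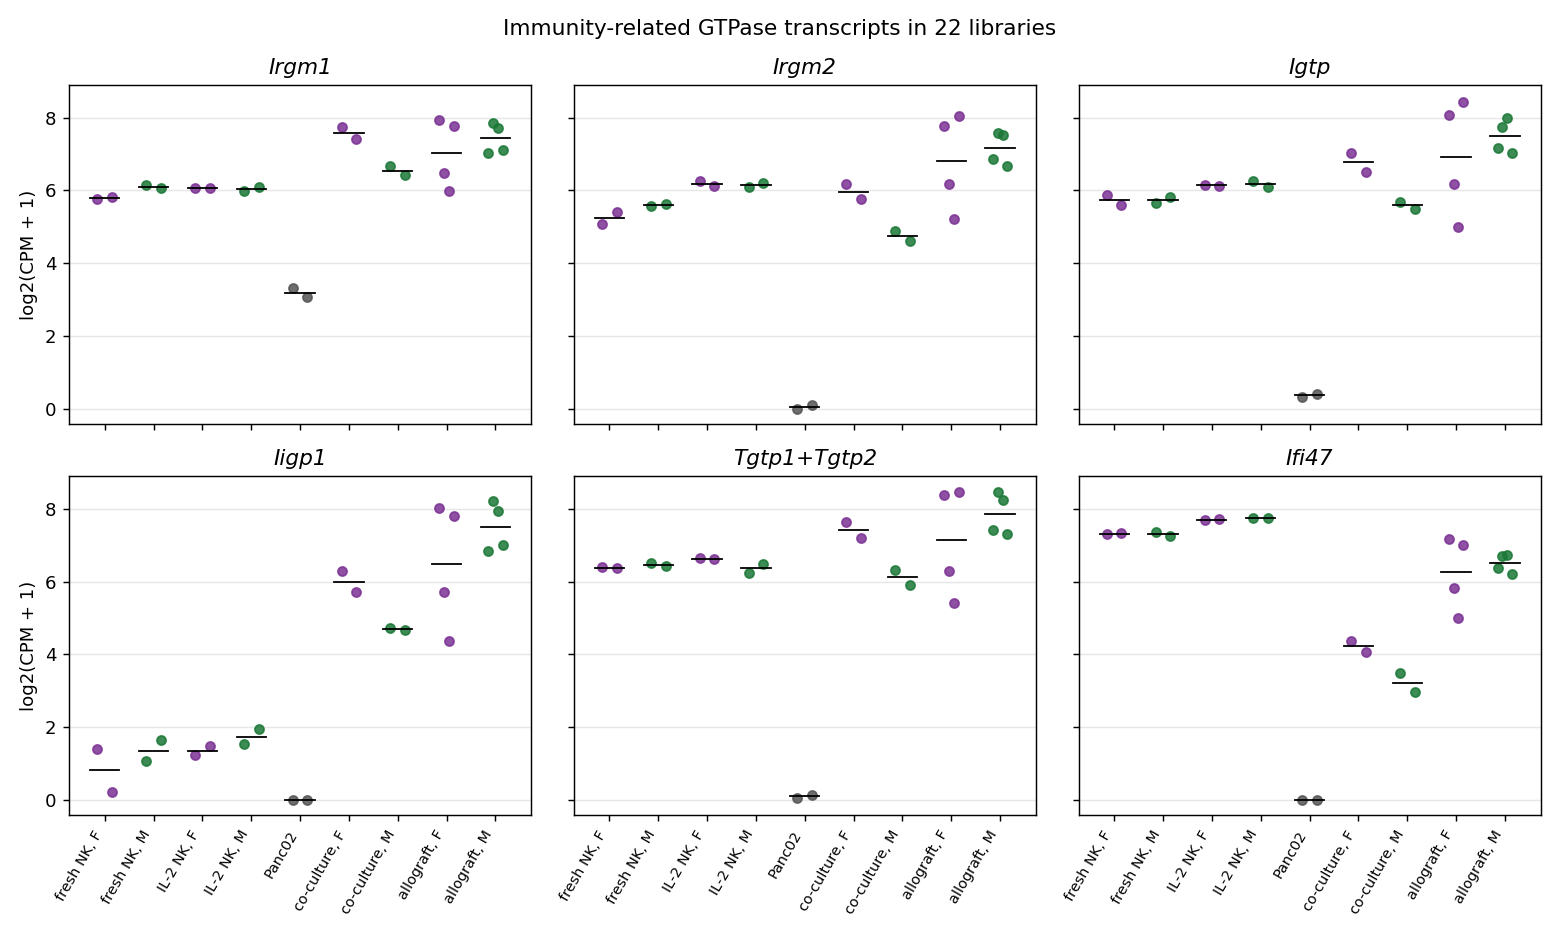
Levels of the 6 IRG rows in 22 libraries, as log2(CPM + 1); each point is a library (purple, female donor or host; green, male; grey, cultured Panc02) and each bar the mean of its group on that scale. Cultured Panc02 lies near 0 for every row but Irgm1, and Ifi47 is the row whose co-culture points (6.77 to 19.7 CPM) lie far below the NK points (153 to 212 CPM).

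Culture with IL-2 asks what changes in NK cells kept alive and activated for 24 h. Fresh and monocultured libraries also differ in the method of RNA extraction, per the labels. A rise or fall between them therefore cannot be assigned to culture apart from extraction. Of the 6 rows, 4 rose between fresh cells and monoculture (Irgm1, Irgm2, Igtp, Ifi47) and 0 fell. Of all 21413 genes tested, 22.1% rose and 21.1% fell, so most of the rows moved in a comparison in which much else moved too. The median log2 fold change of the 6 rows was 0.51, against 0.01 over all genes. Tests here are edgeR's quasi-likelihood test with Benjamini-Hochberg adjustment over all genes (threshold 0.05), and fold changes carry a standard error (SE). How many of all genes lacked overlap between groups was not counted, so a lack of overlap only describes the rows.

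Among the regulators, Irgm2 was at 32.9 and 41.1 CPM in fresh female cells and at 46.1 and 48.6 in fresh male cells. It was at 74.8 and 68.8 CPM in female and 67.2 and 72.8 in male monoculture. Every monoculture library lay above every fresh one, and the log2 fold change was 0.87 ± 0.09 (SE, edgeR adjusted p = 8.38e-07). Igtp was at 47.6 to 57.1 CPM in the 4 fresh and 66.8 to 76.0 in the 4 monoculture libraries, again without overlap (0.52 ± 0.10, edgeR adjusted p = 0.00095).

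Irgm1 was at 52.9 and 55.8 CPM in fresh female, 69.4 and 66.0 in fresh male, 66.2 and 66.0 in monocultured female and 62.4 and 66.5 in monocultured male libraries. Its small rise (0.21 ± 0.07, edgeR adjusted p = 0.0255) was carried by the female groups, which did not overlap, while the male groups did. The call ended with median-ratio scaling (0.15, adjusted p = 0.108), without the filter on low counts, with DESeq2 and without any of 5 single libraries (fresh female 1 or male 5, monocultured female 1, female 2 or male 5), the highest adjusted p being 0.224.

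Among the effectors, Ifi47 was at 156 and 160 CPM in fresh female and 164 and 153 in fresh male cells, and at 204 and 209 and at 212 and 212 in monoculture. The groups did not overlap, and the log2 fold change was 0.50 ± 0.08 (edgeR adjusted p = 0.000159). The Tgtp1 and Tgtp2 sum was at 82.1 to 90.6 CPM in fresh and 74.1 to 99.4 in monoculture libraries, which overlapped (0.18 ± 0.10, edgeR adjusted p = 0.182). With the 8 fresh and monoculture libraries alone the sum passed (0.18 ± 0.07, edgeR adjusted p = 0.0445). Iigp1 stayed between 0.154 and 2.84 CPM in all 8 NK libraries (0.58 ± 0.41, edgeR adjusted p = 0.299), and passed without fresh female 1 (2.00, edgeR adjusted p = 0.0141).

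Other genes of the pathway moved in different directions in monoculture. Of 20 type I interferon genes tested, 17 fell and 2 rose (median log2 fold change -1.49). The nucleotide kinase gene Cmpk2 (-3.45 ± 0.18), the receptor kinase gene Tyk2 (-0.79 ± 0.05), Oasl1 (-1.83 ± 0.14) and the transcription factor gene Irf7 (-1.12 ± 0.10) were lower. The receptor genes Ifnar1 and Ifnar2 rose by 0.66 ± 0.06 and 0.60 ± 0.07. Of 12 genes of interferon gamma signalling, 7 rose and 3 fell (median 0.20). The feedback inhibitor genes Socs1 and Socs3 rose by 2.82 ± 0.08 and 1.53 ± 0.10 and Ifng, which encodes the cytokine, by 1.22 ± 0.11. The receptor chain gene Ifngr2 fell by 3.45 on the log2 scale, from group means of 10.0 and 9.66 CPM to 0.907 and 0.813 in female and male cells. Ciita, the switch of MHC class II genes, and the transcription factor gene Irf1 also fell (-2.13 ± 0.23 and -0.15 ± 0.06).

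Of 11 GBP genes, 5 rose and 0 fell (median 0.29), among them Gbp7 (0.92 ± 0.05), Gbp4 (0.51 ± 0.07), Gbp3 (0.49 ± 0.12) and Gbp11 (0.91 ± 0.24). Of 10 genes of the autophagy conjugation machinery, 8 rose and 0 fell (median 0.37). Examples were the ATG8 family genes Gabarapl1 (1.16 ± 0.07), Gabarap (0.67 ± 0.05) and Map1lc3a (1.47 ± 0.12) and the conjugation gene Atg12 (0.50 ± 0.07). Of 7 other IRG family genes tested, 0 rose and 0 fell (median -0.04); Gm4951 was at 1.31 ± 0.94 and Gm5431 at -0.39 ± 0.30. Per the labels, RNA of fresh and monocultured cells was extracted by different methods. The method changed together with culture, so these libraries cannot separate extraction from culture for the IRG rows or for the lists. Markers of other cell types differed too. Of the dendritic cell markers 5 of 5 tested fell (summed level 479 to 643 CPM fresh and 263 to 337 in monoculture, mostly Itgax), of the B cell markers 5 of 5 (9.61 to 19.9 and 1.27 to 5.08 CPM) and of the fibroblast markers 4 of 4 (4.22 to 13.8 and 0 to 0.398 CPM). Of the erythroid markers 4 of 5 fell (472 to 1140 and 163 to 322 CPM), and of the epithelial markers 4 of 5 rose (2.46 to 5 and 14.6 to 28 CPM). The part of these cell types in the differences between fresh and monocultured cells was not tested.

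Donor sex was compared within each condition. In fresh cells, 1 of the 6 rows differed: Irgm1 had less transcript in cells of female donors (log2 female over male -0.34 ± 0.10, edgeR adjusted p = 0.0451). Of all genes, 5.6% were called lower and 4.42% higher in female cells, and 10% in either direction, so the share among the rows is near the background. The call of Irgm1 ended without any of the 4 fresh libraries (adjusted p = 0.0771 to 0.219). Irgm2 had a similar difference that did not pass the test (-0.39 ± 0.13, edgeR adjusted p = 0.0736). Summed neutrophil markers were at 16.3 and 42.8 CPM in fresh female and 110 and 285 in fresh male libraries, with 1 of 6 called lower in female cells (Mpo). Their part in the Irgm1 difference was not tested. In interferon gamma signalling, Socs1 (-0.99 ± 0.11) and Ifngr1, a receptor chain gene (-0.82 ± 0.10), were lower in female cells and 0 of 12 genes were higher.

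In monoculture, 0 of 6 rows differed between the sexes by edgeR, against 0.107% of all genes, and 0 by DESeq2. At an unadjusted p under 0.05, edgeR passed 0 of the 6 rows and 1468 genes in all, and DESeq2 passed 1368 genes. The sexes did not differ in their change from fresh to monoculture in any of the 6 rows past the threshold, against 2.55% of all genes (215 with a positive and 331 with a negative difference, or 418 and 265 with median-ratio scaling). Without adjustment 2 of the 6 rows were under 0.05 by edgeR, Irgm1 and Irgm2, both with a positive difference (female minus male change). Their adjusted p were 0.227 and 0.291 by edgeR, and DESeq2 called 0 of the 6 rows. Group means of Irgm1 went from 54.4 to 66.1 CPM in female and from 67.7 to 64.5 in male cells. Called by edgeR were Socs1 (difference of log2 changes 0.96 ± 0.15), Ifngr1 (0.71 ± 0.14) and the IRG relative 9930111J21Rik1 (1.01 ± 0.23). Socs1 rose in both sexes, more so in female cells. By group means, Ifngr1 went up from 524 to 723 CPM in female cells and down from 912 to 766 in male cells. Likewise 9930111J21Rik1 went up from 17.7 to 23.7 CPM in female cells and down from 23.9 to 15.7 in male cells.

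**Figure D2:**
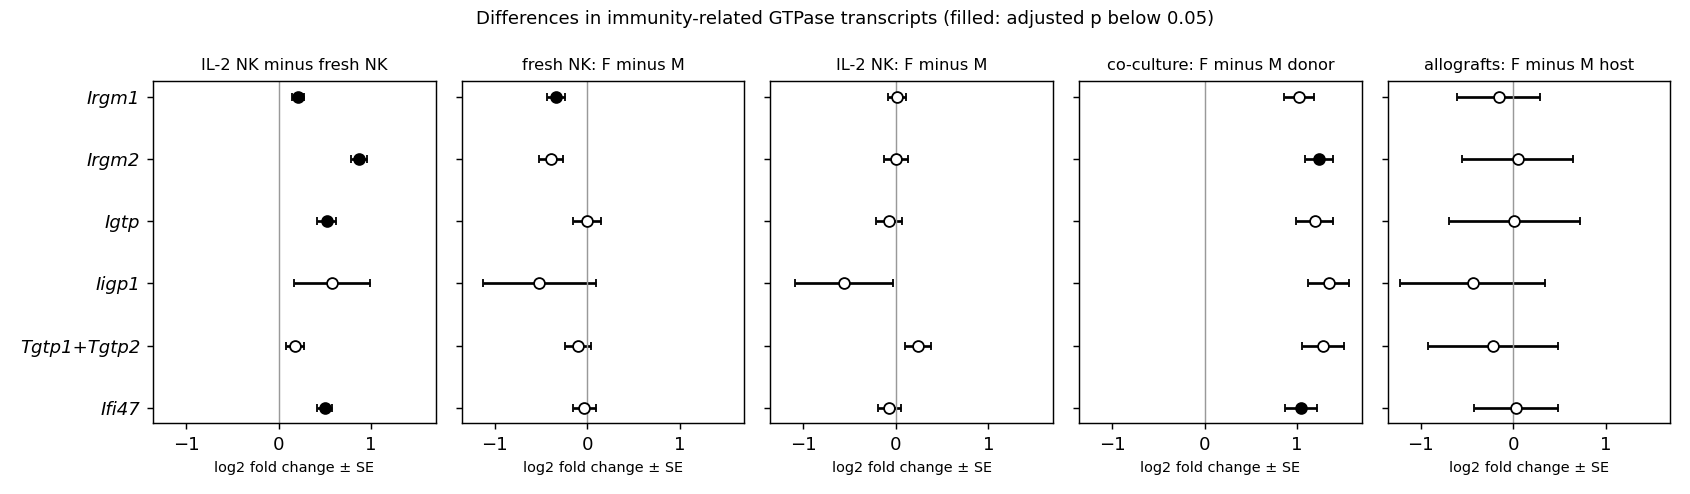
Log2 fold changes with their SE for the 6 IRG rows in 5 comparisons; filled points have an edgeR adjusted p below 0.05 and the grey line marks 0. The co-culture panel is the one with all 6 rows above 1 (1.02 to 1.34), of which Irgm2 and Ifi47 passed, while the allograft panel has the widest errors.

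Cultured Panc02 cells held almost no IRG transcripts except those of Irgm1. Irgm1 was at 8.92 and 7.36 CPM in the 2 libraries, Igtp at 0.256 and 0.332, and Irgm2 at 0 and 0.0712. The Tgtp1 and Tgtp2 sum was at 0.0427 and 0.095 CPM, from 6 counts in all, and Iigp1 and Ifi47 had 0 counts in both libraries. These libraries held 42123781 and 46842646 counts, and a floor of 3 counts over the group was used where a gene had none.

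The co-culture asks how the tumour line and the NK cells look after meeting each other. All 6 rows were higher in co-culture than in Panc02 alone by edgeR, with every co-culture library above every Panc02 library. Of all 18171 genes, 12.2% were called higher and 6.13% lower. Since the genes may have been picked on this contrast, the counts and ratios are given as a description.

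Irgm1 was at 213 and 169 CPM with female and 101 and 83.9 with male NK cells, 23.4-fold and 11.3-fold the mean of cultured Panc02. Igtp was at 129 and 90.1 CPM with female and 50.1 and 44.0 with male NK cells, ratios of 375 and 161 with counting intervals of 256 to 575 and 110 to 247. Irgm2 was at 70.9 and 52.9 CPM with female and 28.3 and 23.4 with male NK cells. Its ratios of 1840 and 766 rest on 3 counts in Panc02 and have intervals of 628 to 8900 and 262 to 3710. For each regulator both co-cultures with female NK cells lay above both with male NK cells.

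Iigp1 was at 77 and 51.5 CPM with female and 25.3 and 24.4 with male NK cells, at least 1900-fold and 737-fold higher than in Panc02 alone. It was also above the 0.154 to 2.84 CPM of NK cells cultured without Panc02 or fresh, so it was the row in which co-culture exceeded both parents by the widest margin. The Tgtp1 and Tgtp2 sum was at 197 and 145 CPM with female and 78.8 and 59.3 with male NK cells, against 74.1 to 99.4 in NK monoculture. Its ratios to Panc02 were 2540 (interval 1170 to 6910) and 1020 (470 to 2790). Ifi47 was at 19.7 and 15.8 CPM with female and 10.2 and 6.77 with male NK cells, at least 526-fold and 252-fold above Panc02 but far below the 204 to 212 CPM of NK monoculture. These intervals and bounds cover counting error only, and since most fragments were counted as a pair of reads, the bounds may be too high.

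Over both donor sexes the median log2 ratio of mean CPM of the 6 rows to Panc02 was 9.47, with Iigp1 and Ifi47 set at the floor. The smallest of these log2 ratios was 4.12 and the largest 10.8. By edgeR, another measure, the median log2 fold change was 10.39 for the 6 rows and 0.01 over all genes. Per kb, the Tgtp1 and Tgtp2 sum (55.7 ± 12 CPM per kb) and Igtp (54.3 ± 13.8) led in co-culture with female NK cells, and did not differ beyond their spread. They were followed by Irgm1 (32.9 ± 5.42), Irgm2 (16.8 ± 3.45), Iigp1 (11 ± 3.1) and Ifi47 (7.18 ± 1.13). Singly, Tgtp1 (26.3 ± 5.94) and Tgtp2 (29.6 ± 6.1) had lower means than Igtp and Irgm1, so the lead of the sum comes from adding both copies. Ifi47, first in NK cells, was last here, and in co-culture with male NK cells it was last as well (3.44 ± 0.995 CPM per kb).

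A co-culture library holds RNA of both cell types, so each row was also set against the level that a plain mixture would give. The NK share of each library was the median, over 362 genes restricted to NK cells, of the co-culture level over the monoculture level of the same sex. It was 2.81% and 3.40% with female and 2.05% and 1.76% with male NK cells. The mixture level adds that share of the monoculture level to the rest at the level of cultured Panc02.

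Irgm1 stood 21.8, 16.7, 10.9 and 9.18 times above its mixture level in female 1, female 2, male 4 and male 5. Igtp stood 58.0, 34.2, 28.6 and 28.4 times above it and Irgm2 34.5, 21.4, 19.3 and 18.4 times. The Tgtp1 and Tgtp2 sum was 69.7, 42.5, 45.4 and 39.4 times above, and Iigp1 1750, 965, 523 and 587 times. For these 5 rows the RNA that NK cells would bring at their monoculture level was at most 5.28% of what was measured.

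Ifi47 differed from the other rows in this respect. It stood 3.40, 2.25, 2.36 and 1.81 times above the mixture level, and the RNA that NK cells would bring made up 29.4% to 55.2% of it. With the 90th percentile in place of the median as the NK share, Ifi47 came to 1.5 times the mixture level with female and 1.21 times with male NK cells, against 2.83 and 2.08. In female 1, female 2, male 4 and male 5 it was then at 1.76, 1.25, 1.36 and 1.06 times. The RNA that NK cells would bring then made up 56.8% to 94.5% of Ifi47. Under that share the Tgtp1 and Tgtp2 sum, Igtp, Irgm2 and Iigp1 also came closer to the mixture level, by more than 1.5 times, and the smallest ratio in a single library for these 4 rows was 10.9 (Irgm2, male 5). Irgm1 moved less, to 18.9, 14.4, 10.0 and 8.52 times. Whether the added transcripts were made in Panc02 or in NK cells is not resolved by these libraries.

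**Figure D3:**
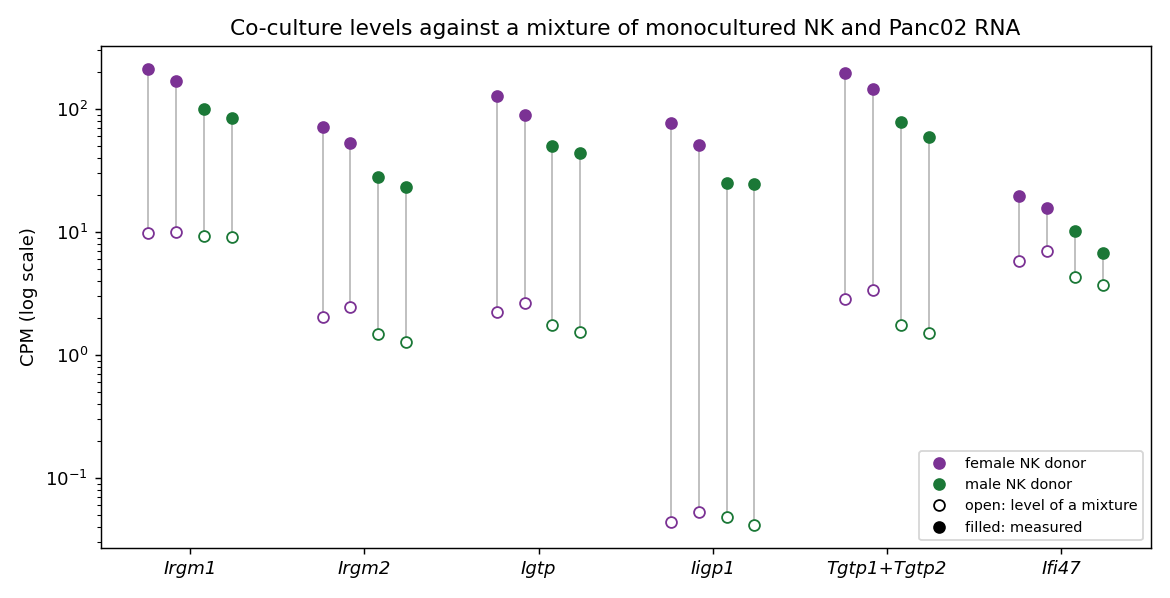
Measured levels (filled points) of the 6 IRG rows in 4 co-culture libraries and the levels that a mixture of monocultured NK and Panc02 RNA would give (open points), in CPM on a log scale. The gap is widest for Iigp1 (523 to 1750 times) and narrowest for Ifi47 (1.81 to 3.40 times), and the measured points with female donors lie above those with male donors in every row.

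Neighbouring genes of the pathway were also higher in co-culture. Of 10 GBP genes tested, 10 were higher. Gbp4 had group means of 27.8 and 13.7 CPM with female and male NK cells against 0.0237 in Panc02, Gbp3 11.5 and 6.45 against 0.0652, and Gbp9 13.4 and 7.16 against 0.285. The median log2 ratio of 11 GBP genes to Panc02 was 6.68 with 5 of them at the floor. Against the mixture level these genes differed. Of the 10 called GBP genes 7 stood more than 2 times above it in all 4 libraries, among them Gbp2 (42.4 to 83.7 times) and Gbp6 (22.6 to 49.4 times). Gbp8 (0.95 to 1.09 times) and Gbp7 (1.07 to 1.39 times) lay near it, so for Gbp8 the RNA that NK cells would bring matches what was measured. Of the 10, 5 are among the 362 genes that set the NK share, Gbp7 and Gbp8 included. Of 6 other IRG family genes tested, 5 were higher, among them Gm4841 (7.13 and 2.36 CPM against 0.0119) and 9930111J21Rik2 (2.52 ± 0.28). Irgq, a more distant relative, did not pass (-0.02 ± 0.07, edgeR adjusted p = 0.865).

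Of 12 interferon gamma signalling genes, 9 were higher and 0 lower (median log2 fold change 1.23). The transcription factor gene Irf1 was higher by 2.62 ± 0.06 and Nlrc5, which drives MHC class I genes, by 3.05 ± 0.10. Ifng was at 4.01 and 4.04 CPM with female and 2.39 and 1.82 with male NK cells and had 0 counts in Panc02. Of 17 type I interferon genes, 11 were higher and 0 lower (median 1.27), such as Irf9 (1.79 ± 0.10), Oasl2 (3.86 ± 0.25), Isg15 (1.84 ± 0.22) and Bst2, a tether of budding viruses (0.64 ± 0.07). Of 10 autophagy genes, 2 were higher and 0 lower (median 0.10), Gabarap by 0.14 ± 0.04 and Map1lc3a by 0.32 ± 0.10. More than 2 times above the mixture level in all 4 libraries were 3 of the 5 called IRG relatives, 4 of the 9 called interferon gamma signalling genes, 4 of the 11 called type I interferon genes and 0 of the 2 called autophagy genes. Irf1 stood 3.76 to 6.76 times above it, Nlrc5 2.45 to 4.93, Oasl2 7.99 to 23.8 and Isg15 2.89 to 4.56. Bst2 stood at 1.29 to 1.87 times the mixture level, Gabarap at 1.01 to 1.08 and the kinase gene Jak1, also called higher, at 0.91 to 0.999.

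With female rather than male NK cells, every row was higher in co-culture and the libraries did not overlap. Groups of 2 libraries can separate without a true difference, and the share of all genes without overlap was not counted. The log2 fold changes were 1.24 ± 0.15 for Irgm2 (edgeR adjusted p = 0.00746) and 1.04 ± 0.17 for Ifi47 (edgeR adjusted p = 0.0039). The other 4 rows did not pass, with 1.02 ± 0.16 for Irgm1, 1.34 ± 0.22 for Iigp1, 1.28 ± 0.23 for the Tgtp1 and Tgtp2 sum and a value between these for Igtp (edgeR adjusted p = 0.118 to 0.206). Thus 2 of 6 rows were called higher, against 0.985% of all genes (0.154% were lower), and the median of the 6 was 1.21 against 0.00 over all genes. The number of calls rested on the processing, with 6 rows called by DESeq2, 5 without the filter on low counts and 5 when the 12 NK and co-culture libraries were fitted together. Without male 5, Ifi47 did not pass (0.76, edgeR adjusted p = 0.0941), and 1 row was called. Without female 1 or female 2, 5 rows were called, and without male 4, 3 rows.

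The libraries with female NK cells also held a larger NK share, at 3.10% ± 0.42 against 1.90% ± 0.21 (SD, n = 2 each), and more summed NK markers (240 and 309 against 182 and 165 CPM). Ifng had a log2 fold change of 0.92 ± 0.28 (edgeR adjusted p = 0.145). The part of the NK share in the sex difference of the IRG rows was not tested. Of the interferon gamma signalling genes 5 of 12 were higher with female NK cells, among them Irf1 (0.78 ± 0.06), Nlrc5 (1.12 ± 0.09) and Socs1 (0.59 ± 0.12). Of the GBP genes 3 of 10 were higher, Gbp4 (0.99 ± 0.12), Gbp9 (0.88 ± 0.19) and Gbp6 (0.97 ± 0.22). Of the other IRG genes 1 of 6 was, Gm4841 (1.56 ± 0.25), and of the autophagy genes 0 of 10. Of the type I interferon genes 3 of 17 were higher: Irf9 (0.61 ± 0.10), which encodes a subunit of the ISRE-binding complex, Oasl2 (1.13 ± 0.20) and Bst2 (0.39 ± 0.08).

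Allografts ask how the tumour line looks when grown in a host. Every row was higher in all 8 allografts than in cultured Panc02. By edgeR 6 of 6 rows were called higher, against 38.7% of all 23263 genes (23.4% were lower), from which nothing is read. The median log2 fold change over all genes was 0.42, or 0.39 with median-ratio scaling. For the 6 rows the edgeR median was 11.85. Their median log2 ratio of mean CPM was 11.54 with Iigp1 and Ifi47 at the floor, from 4.33 for Irgm1 to 12.27 for Iigp1.

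Irgm1 was at 242, 88.7, 61.6 and 215 CPM in female hosts 1 to 4 and at 130, 230, 208 and 138 in male hosts 5 to 8. Irgm2 was at 218, 71.8, 36.0 and 260 CPM in female and 115, 191, 184 and 100 in male hosts. Igtp was at 270, 71.2, 30.5 and 345 CPM in female and 143, 214, 253 and 130 in male hosts. In all 3 regulators female hosts 3 and 2 were the lowest of the 8, and the range of the female hosts held that of the male hosts.

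The effectors had the same order at the low end. Iigp1 was at 258, 51.9, 19.5 and 222 CPM in female and 114, 295, 245 and 127 in male hosts. The Tgtp1 and Tgtp2 sum was at 335, 76.6, 41.5 and 352 CPM in female and 169, 354, 300 and 156 in male hosts. Ifi47 was at 143, 55.8, 30.8 and 128 CPM in female and 81.3, 103, 106 and 73.2 in male hosts. Among the female hosts the highest library exceeded the lowest 13.3 times for Iigp1, 11.3 times for Igtp, 8.46 times for the Tgtp sum, 7.22 times for Irgm2, 4.64 times for Ifi47 and 3.93 times for Irgm1. Among the male hosts these ratios were 1.44 to 2.59.

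Set against the other groups, allografts were the highest group for Irgm2, Igtp, Iigp1 and the Tgtp sum by mean, but for every row except Ifi47 their range overlapped that of co-culture with female NK cells. For Iigp1 the lowest allograft (19.5 CPM) lay below all 4 co-cultures. For Ifi47 the order had no overlap anywhere: monoculture (204 to 212 CPM), fresh NK cells (153 to 164), allografts (30.8 to 143), co-cultures (6.77 to 19.7) and cultured Panc02 (0). Per kb, Igtp led in allografts of female hosts (88.6 ± 75.2 CPM per kb, SD, n = 4) ahead of the Tgtp sum (65.5 ± 53.6). Irgm2 (39.7 ± 29.6), Ifi47 (36.2 ± 22.1), Irgm1 (26.1 ± 15.5) and Iigp1 (23.7 ± 20.5) followed, with no neighbours differing beyond their spread. Singly, Tgtp1 was at 26.6 ± 22.2 and Tgtp2 at 39.4 ± 31.9 CPM per kb in these allografts.

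Host sex did not separate the rows past the threshold, but the errors were wide. Tested singly, Tgtp1 was at -0.19 ± 0.72 and Tgtp2 at -0.25 ± 0.69 (log2 female over male, SE). A difference of the size of these errors could go unseen. By edgeR 0 of 6 passed, against 0.0146% of all 20559 genes, also with 0 at an unadjusted p under 0.05, and the log2 fold changes of female over male hosts had a median of -0.08. Over all genes, 3087 were under that unadjusted threshold by edgeR and 3479 by DESeq2. DESeq2 called 291 genes higher and 387 lower, with 0 of the 6 rows among them.

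**Figure D4:**
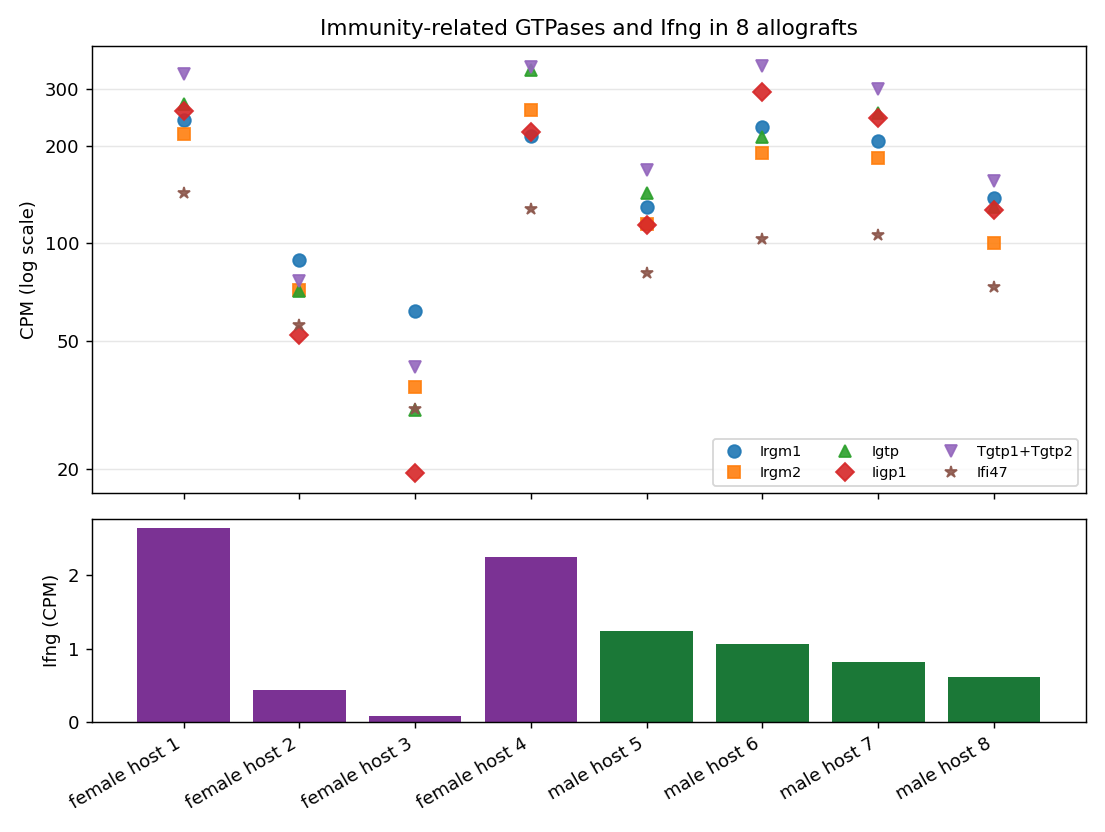
Levels of the 6 IRG rows (CPM, log scale, upper panel) and of Ifng (CPM, linear scale, lower panel) in each of the 8 allografts. Female hosts 2 and 3 are lowest in all 6 rows and have Ifng at 0.438 and 0.0765 CPM, while female hosts 1 and 4 have Ifng at 2.64 and 2.25 CPM. Male host 5 has more Ifng (1.24 CPM) than male hosts 6 and 7 (1.07 and 0.817) but less of every row.

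Ifng itself was low in allografts, at 2.64, 0.438, 0.0765 and 2.25 CPM in female hosts 1 to 4 (91, 18, 2 and 89 counts) and at 1.24, 1.07, 0.817 and 0.614 in male hosts 5 to 8. The pair of allografts with the lowest IRG levels also had the lowest Ifng, though female host 2 and male host 8 differed by few counts (18 and 24). Female hosts 1 and 4 had the most Ifng and the highest mean log2(CPM + 1) of the rows (7.89 and 7.92). Among the male hosts the orders differed. Male host 5 had more Ifng than male hosts 6 and 7 (42, 45 and 34 counts) but less of every row. Female hosts 2 and 3, the low pair, had the lowest summed NK markers (11.9 and 10.5 CPM, against 17.6 to 52.9 in the other 6). Klrk1, Klrd1, Eomes, Gzma and Prf1 were each lowest in this pair, but Ncr1 and Klrb1c were not. Ncr1 was at 0.901 CPM in female host 2 and at 0.307 to 0.826 in the male hosts. Klrb1c was at 0.658 and 0.383 CPM in the pair and at 0.153 in male host 8. Summed macrophage markers did not set this pair apart (5700 and 4210 CPM, against 3780 to 7800), nor did summed T cell markers (57.6 and 92.9, against 69.7 to 143). Endothelial markers did set it apart, at 320 and 295 CPM against 110 to 210 in the other 6. Dendritic cell markers were at 62.5 and 51.4 CPM against 62.5 to 104, the lower end being shared with male host 8. Muscle markers were high in female host 2 (16900 CPM) but higher in female host 4 (27200 CPM), whose IRG levels were high. Epithelial markers were lowest in female host 2 (637 CPM, against 1090 to 1590 in the other 7), as were neutrophil markers (36.4 against 67.6 to 240). B cell markers were at 268 CPM in female host 3 and at 7.28 to 19.0 in the others. Fibroblast markers (13200 and 14100 CPM, against 7270 to 23300) and erythroid markers (190 and 59.1, against 43.1 to 668) did not separate the pair. The part of these cell types in the IRG levels was not tested.

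Around the family, 11 of 11 GBP genes were higher in allografts than in cultured Panc02 (median log2 ratio 9.98, with 5 at the floor). Gbp2 had means of 369 and 359 CPM in female and male hosts against 0.114, and Gbp9 39.1 and 51.3 against 0.285. Of 7 other IRG genes tested, 6 were higher, such as 9930111J21Rik1 (3.69 ± 0.38) and Gm5431 (7.49 ± 0.82), and Irgq was not called (0.33 ± 0.13, edgeR adjusted p = 0.0502). Of 12 interferon gamma signalling genes, 10 were higher, among them Socs3 (2.94 ± 0.24), Ifngr2 (1.10 ± 0.14), Ifngr1 (2.16 ± 0.27) and Ciita (55.7 and 56.7 CPM against 0.0107). The kinase gene Jak2 was lower (-1.56 ± 0.29). Of 20 type I interferon genes, 18 were higher and 0 lower, among them Oas1a (7.29 ± 0.50), Irf9 (2.99 ± 0.21) and Irf7 (5.97 ± 0.43). Of 10 autophagy genes, 4 were higher and 0 lower: Gabarap (1.45 ± 0.12), Map1lc3a (2.13 ± 0.22), Map1lc3b (1.17 ± 0.16) and Gabarapl1 (0.76 ± 0.13). Between host sexes, 0 genes of these 5 lists were called.

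Tgtp1 and Tgtp2 shared the direction of their sum in every comparison with Panc02, but not a constant ratio. Counts of Tgtp2 were 1.96 to 2.36 times those of Tgtp1 in fresh and monocultured NK libraries, 1.02 to 1.09 times in co-cultures and 1.34 to 1.51 times in allografts. The ranges did not overlap. Multi-mapping reads were counted, and whether a shared read entered 1 copy or both is not known. Each gene alone is therefore uncertain. If such reads entered both copies, the level of the sum, also per kb, is too high.

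The genes most like the family in pattern were found by Pearson's r between a gene's log2(CPM + 1) and the mean of the 6 rows, with no test. Over all 22 libraries and 14432 genes, they included Gbp2 (r = 0.990), Gbp6 (0.943), the peptide-loading gene Tapbp (0.932), Parp9 (0.912), Gm12185 (0.902), Gbp3 (0.892) and Gbp10 (0.892). Gbp2 ran from 0.0854 to 723 CPM. Over the 8 allografts and 14419 genes they included Gbp3 (0.996), Gbp6 (0.995), Gm4951 (0.994), Gbp2 (0.990), Gm12216 (0.989), Gbp4 (0.989) and Gm12185 (0.986). The 22 points share groups and cell types, the 8 allografts share the low pair, and Gm12185 shares 223 exon bases with Tgtp1.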

How the data were processed

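Polyadenylated RNA of 22 libraries was sequenced with a strand-specific kit, per the labels. The authors deposited unnormalised counts per gene, in a table for cultured cells and one for allografts, made with HISAT2 2.2.1, cutadapt 4.4, featureCounts 2.0.6 and SAMtools 1.19.2 on GRCm39, per the submitters' processing notes. Counting took the reverse strand, multi-mapping reads and each mate on its own, per the file headers. Even counts made up 66.4% to 78.6% of gene counts from 1 to 20, so Poisson intervals (exact, 95%) are too narrow. Symbols were matched for 51498 of 78298 IDs.

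The quasi-likelihood test of edgeR 4.0.16 (R 4.3.3, robust, TMM, filterByExpr) was run over all genes with Benjamini-Hochberg adjustment at 0.05, and SE is the log2 fold change over the square root of F. Separate fits took the 12 NK and co-culture libraries (biological coefficient of variation 0.127), co-cultures with Panc02 (0.0601), allografts with Panc02 (0.372) and the 8 allografts (0.363), each pooling the spread of its groups. NK-restricted genes had at least 20 CPM in monoculture and under 0.1 in Panc02. Alternatives were median-ratio scaling, no filter, DESeq2 1.42.0, each library left out, other sets of libraries, the sample number as a block and, for the mixture level, another percentile and minimum. The fits were tested on simulated data.

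The genes, lists and rules were chosen with earlier results of these data known. Named were all 7 genes and, of each list, the 4 with the smallest p in a described comparison, those called against the majority, and the 8 genes most like the family at 5 CPM or more in a group mean. Irgq was named after its values were seen, as were the mixture levels and Jak1 among the listed genes, and 1 gene that the rule names is not reported here.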

Additional observations from a re-analysis of the deposited data

Results flagged for a closer look

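A difference between donor sexes passed its test for 2 of the 6 IRG rows, both in co-culture. Irgm2 had a log2 fold change of 1.24 (female over male NK cells) and Ifi47 one of 1.04. Both donor groups of 2 libraries were free of overlap in each, and the share of all genes without overlap was not counted. The call of Ifi47 was lost without male 5 (0.76, edgeR adjusted p = 0.0941). The NK share of the libraries differed in the same direction, and its part was not tested. In 12 groups of 4 libraries, 1 for each row and host sex, 0 allografts stood apart from the rest of their group beyond Dixon's limit.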

How the results depend on the processing

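Counts of called rows moved by more than 1.5 times in 2 comparisons. In fresh cells 2 rows were lower in female cells (Irgm1 and Irgm2) without the filter, with DESeq2 and with the 8 fresh and monoculture libraries alone, and 0 to 2 with 1 library left out. In co-culture by donor sex 5 rows were higher without the filter, 6 with DESeq2 and 5 with 12 libraries, and 1 to 5 with 1 library left out. Against Panc02, 6 of 6 rows were higher in each of the 6 co-culture and 10 allograft fits with 1 library left out, and in monoculture 3 to 4 rows rose (3 with DESeq2, with median-ratio scaling and without the filter, and 5, with the Tgtp sum added, in the 8 fresh and monoculture libraries alone). Some values changed sign, and none of these passed. In fresh cells the Igtp difference was -0.02 with median-ratio scaling, -0.12 without the filter and -0.02 with DESeq2. Without the filter, Irgm1 and Irgm2 were at -0.06 and -0.06 between monocultured sexes. The sex difference in the change with culture was 0.02, 0.03 and 0.21 for Iigp1 with median-ratio scaling, without the filter and with DESeq2, and 0.09 with 8 libraries. For Ifi47 it was 0.02, 0.02 and 0.02 under the first 3. With 1 library left out, fresh cells ranged from -3.47 to 0.12 (Iigp1), -0.18 to 0.13 (Igtp) and -0.14 to 0.01 (Ifi47). Iigp1 had 59 and 2 counts in fresh female 1 and 2. Monoculture ranged from -0.1 to 0.06 (Irgm1), -0.06 to 0.07 (Irgm2) and -0.17 to 0.01 (Igtp), and the sex difference in change from -0.68 to 2.91 (Iigp1), -0.21 to 0.1 (Igtp) and -0.08 to 0.0 (Ifi47). Host sex ranged from -0.47 to 0.12 (Irgm1), -0.39 to 0.39 (Irgm2), -0.53 to 0.39 (Igtp), -0.27 to 0.33 (Ifi47) and -0.64 to 0.13 (Tgtp sum). With the 90th percentile as NK share, ratios to the mixture level with female and male NK cells were 14.9 and 11.1 (Irgm2), 25.9 and 17.9 (Igtp), 718 and 322 (Iigp1), 1.5 and 1.21 (Ifi47) and 30.1 and 25.1 (Tgtp sum), and with NK genes of at least 50 CPM Igtp came to 28.8 with male cells; the cause of these changes was not tested. Sample numbers were not shown to pair libraries (r of deviations 0.0227 in female and 0.267 in male fresh and monoculture libraries), and with the number as a block Irgm1 (0.21), Irgm2 (0.87), Igtp (0.54) and Ifi47 (0.51) were still called in monoculture, Iigp1 reached 0.16 in the sex difference in change, and that comparison called 135 genes higher and 203 lower, against 215 and 331. Over all genes, calls higher and lower became 562 and 2524 without the filter in fresh cells by sex (947 and 1200), with 1884 lower by DESeq2. In monoculture by sex they became 64 and 144 without the filter and 40 and 39 with DESeq2 (12 and 11), with 6 higher in 8 libraries. In the sex difference in change they became 924 and 562 with DESeq2, with 449 higher without the filter and 94 in 8 libraries. In co-culture by sex they became 345 and 74 without the filter and 274 and 5 with 12 libraries (179 and 28), and by host sex 3 and 11 without the filter and 291 and 387 with DESeq2 (0 and 3). Tgtp1 and Tgtp2 as separate genes gave the same calls as their sum. Groups of 2 libraries and 0 to 6 counts of 4 rows in Panc02 limit these values.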
